A study of Mus musculus with 30 samples.

Results

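RNA was compared between 16 h and 8 h of ethanol, the vehicle for tamoxifen, in naive mouse embryonic stem cells without the histone methyltransferases KMT2C and KMT2D. All 6 libraries of this comparison, out of 30 in the series, came from a single genotype, Kmt2cKO; Kmt2dKO;GRHL2-ERT, on a C57BL/6J x 129 background. This genotype is called double-KO below, and 3 libraries were made after 16 h of ethanol and 3 after 8 h. GRHL2-ERT joins GRHL2, a transcription factor of epithelia, to an estrogen receptor domain, which stays mostly outside the nucleus until tamoxifen is added. It was introduced by transposition, and clones were then picked for similar GRHL2 expression, so the line is not a pool. No tamoxifen was given to these 6 libraries. The medium held fetal bovine serum, LIF, the MEK inhibitor PD0325901 and the GSK3 inhibitor CHIR99021 in every group. For comparison, GRHL2-ERT double-KO cells in tamoxifen, GRHL2-ERT Kmt2c-KO cells in ethanol or in tamoxifen, and Kmt2c-KO cells without the transgene in tamoxifen had 3 libraries each at 16 h and at 8 h. The labels give these Kmt2c-KO lines a floxed allele too, written Kmtd fl/fl. Genes were not preselected, and the 12414 genes that reached 1 CPM (a read share scaled to a library of fixed size) as the mean of some group were tested out of 12428 in the deposited table. Replicates carry numbers in the labels, and nothing says that they were separate cultures, so each p measured only the spread between libraries, which may be technical.

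LIF holds mouse embryonic stem cells in self-renewal through the kinase JAK and the transcription factor STAT3, while the MEK inhibitor blocks the FGF signal that starts differentiation and the GSK3 inhibitor mimics a WNT signal. Cells in this naive state express Nanog, Klf2 and Tfcp2l1 and keep DNA methylation low. Vehicle cultures at successive harvests serve as the baseline for the tamoxifen series. A change between them can follow culture time, nutrient use or feeding, or the preparation of the libraries. No preparation batch is given in the labels, so time and preparation cannot be told apart.

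Recovered depth was 15.4 to 17 M reads in the 16 h libraries and 19.7 to 22.1 M reads in the 8 h libraries. A gene passed when limma gave a Benjamini-Hochberg adjusted p under 0.05 over all tested genes. By this rule 1083 genes were higher and 1556 were lower at 16 h, which is 21.3% of the genes tested (8.72% higher and 12.5% lower). These shares over all genes are the background for every list count below. Changes of at least 1 on the log2 scale that also passed numbered 377 higher and 137 lower, or 4.14%. The 3 libraries of each time did not overlap for 46.2% of genes. The median gene had a log2 fold change of -0.06, and scaling by median of ratios, which shifted the median by 0.05, gave 1411 higher and 1018 lower, so the balance of directions depended on the scaling. The number of genes passing was 1488 without 8 h replicate 3, 1656 without 16 h replicate 2 and 1678 without 16 h replicate 1. The first principal component of the 6 libraries held 63.6% of the variance and placed all 16 h libraries on one side, and the next (16.0%) spread the 8 h libraries, with replicates 1 and 3 at its ends.

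Tags of Kmt2c, which lies at mm10 chr5:25271798-25498783, had 18.5, 18.8 and 19.3 CPM at 16 h, against 29.6, 26.2 and 32.6 CPM at 8 h. Tags of Kmt2d (chr15:98831669-98871204) had 8.18, 8.13 and 6.62 CPM at 16 h, against 9.69, 13.6 and 5.77 CPM at 8 h. The sources used here do not give the deleted segments, and tags at the 3′ end outside such a segment do not check a knockout. Kmt2c tags fell (log2 fold change -0.61 ± 0.16 SE; adjusted p = 0.00791) and Kmt2d tags did not pass (-0.24 ± 0.23; adjusted p = 0.476). Grhl2, whose tags would include the transgene where the construct carries the mouse 3′ sequence, averaged 52.5 ± 7.89 CPM at 16 h and 41.2 ± 10.1 CPM at 8 h (SD, n = 3 each), a difference that did not pass (adjusted p = 0.309; 0.00249 in a fit with the covariate described below). Esr1, which would count tags of the receptor domain only if the construct carried the mouse sequence, averaged 29.9 ± 4.65 CPM at 16 h and 13.9 ± 4.22 CPM at 8 h (adjusted p = 0.103).

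All 10 naive stem cell markers examined were in the table, with a summed level of 6034 to 6179 CPM at 16 h and 5193 to 5307 CPM at 8 h. Markers of feeder fibroblasts were nearly absent: 3 of 7 were in the table (Col3a1, Dcn, Postn and Lum were not), with sums of 3.24 to 5.64 CPM at 16 h and 3.44 to 4.26 CPM at 8 h. Primitive endoderm markers (4 of 6 in the table) summed to 9.67 to 15.2 CPM at 16 h and 6.94 to 12.8 CPM at 8 h, and mesoderm markers (2 of 4) to 1.95 to 2.79 CPM and 1.42 to 1.68 CPM at these times. Neuroectoderm markers (4 of 4) summed to 63.7 to 66.2 CPM at 16 h and 79.8 to 108 CPM at 8 h. Trophoblast markers (3 of 6, without Cdx2, Elf5 and Hand1) summed to 46.4 to 52.1 CPM at 16 h and 60.3 to 75.2 CPM at 8 h. The wider list of 14 measured trophoblast genes described below went the other way. It summed to 529 to 588 CPM at 16 h and 449 to 485 CPM at 8 h. In such bulk libraries fewer cells of a type and less RNA per cell cannot be told apart.

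Several measures of the libraries moved with time, and they stand before the gene results because they touch the largest increases. A set of 532 genes had a within-group SD of at least 0.5 on the log2 scale in the 24 libraries outside this comparison and is called variable below. Their mean log2(CPM + 1) was 4.22, 4.27 and 4.20 in the 16 h libraries and 3.76, 3.69 and 3.00 in the 8 h libraries, lowest in replicate 3. Of the 377 increases of at least 1 on the log2 scale, 125 were variable genes, against 7 of the 137 such decreases. With this mean as a covariate, a fit added after seeing the data, 556 genes were higher and 1402 lower (15.8%), and 456 of the 1083 increases and 791 of the 1556 decreases still passed in the same direction. This fit is called the covariate fit below and is named for a gene only where it ended or gave the call.

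**Figure D1:**
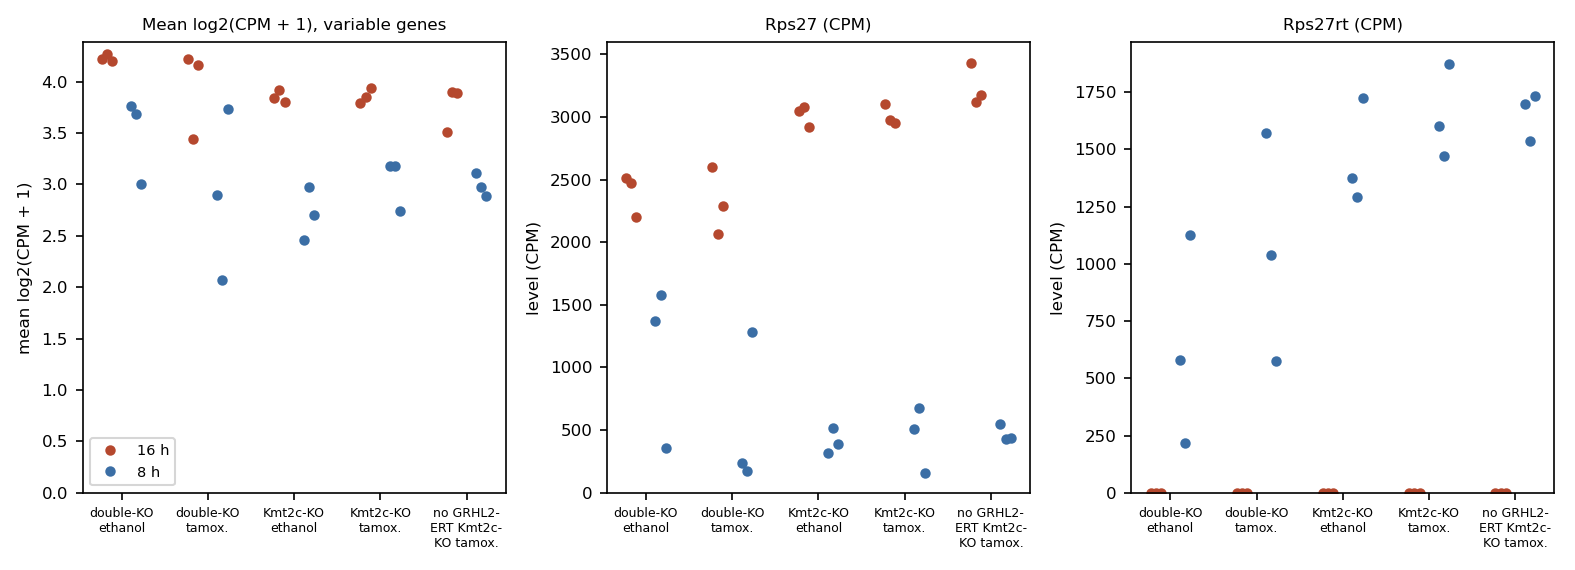
Mean log2(CPM + 1) of the 532 variable genes (left), Rps27 (middle) and Rps27rt (right) in each of the 30 libraries, with the 16 h libraries left of the 8 h libraries for each line and treatment. In double-KO ethanol cells the variable genes averaged 4.20 to 4.27 at 16 h and 3.00 to 3.76 at 8 h, and Rps27rt was at 0 in all 15 libraries of 16 h.

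The largest decrease was Rps27rt, a copy of the ribosomal protein gene Rps27, and it shows a limit of tag counting. Rps27rt (chr9:114982366-114982739) had 0 CPM in all 15 libraries of 16 h in the series and 216 to 1874 CPM in all 15 of 8 h. In double-KO ethanol cells it was at 0 at 16 h, against 579, 216 and 1126 CPM at 8 h, which with a floor of 3 reads per library was at least 3442-fold lower. Rps27 itself (chr3:90212522-90213651) had 2510, 2471 and 2202 CPM at 16 h, against 1368, 1577 and 358 CPM at 8 h, a difference that missed the threshold (adjusted p = 0.098). The sum of both copies was 2510, 2471 and 2202 CPM at 16 h and 1947, 1793 and 1484 CPM at 8 h. The 2 annotated transcripts are identical over 341 aligned bases, so reads can be assigned to either, and neither gene's level is certain. The last 60 coding bases of Rps27rt, shown because they lie within tag range of the 3′ end, are found without a mismatch in Rps27, both from GENCODE mouse release M21, 5′ to 3′.
Rps27rt: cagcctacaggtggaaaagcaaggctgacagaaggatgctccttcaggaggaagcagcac
Rps27: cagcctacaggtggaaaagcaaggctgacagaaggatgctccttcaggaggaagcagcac

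Ribosomal RNA tags and base composition also moved with time. Rn45s, the 45S ribosomal RNA precursor, took 2.12%, 1.85% and 2.49% of each library at 16 h, against 3.42%, 3.88% and 4.82% at 8 h. It fell by 0.90 on the log2 scale (SE 0.21; adjusted p = 0.00361; 0.0658 in the covariate fit), and over all groups its share was 1.85% to 2.61% at 16 h and 3.10% to 7.40% at 8 h. The fold change also followed the GC content of the transcript. The median log2 fold change was 0.15 in the lowest of 5 equal bins of genes by GC content, 0.03, -0.07 and -0.17 in the next bins, and -0.26 in the highest. The share of genes that rose was 17.1% in the lowest bin and 3.43% in the highest, and the share that fell was 4.94% and 19.8% in these bins. With each library centred on a fit against GC content, 1043 genes were higher and 1245 lower. Transcript length showed a weaker trend. The median log2 fold change was -0.005 in the bin of shortest transcripts and -0.145 in the longest. The share that fell was 10% and 17.2% in these bins, and the share that rose was 9.78% and 6.11%. No fit corrected for length. The part of GC content, transcript length, ribosomal tags and the variable genes in the results below was not tested beyond these fits.

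**Figure D2:**
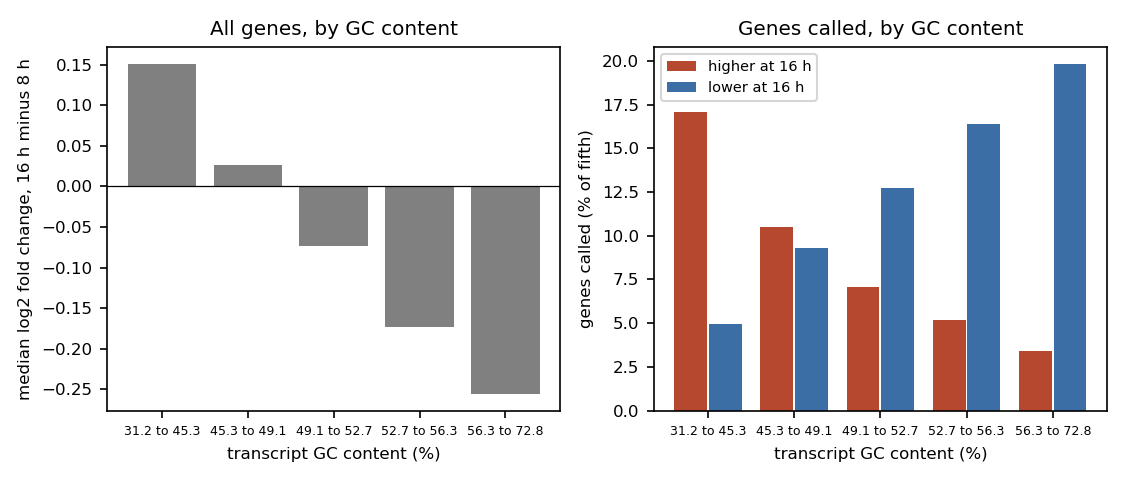
Median log2 fold change of 16 h over 8 h (left) and percentage of genes passing in each direction (right), in 5 bins of genes by GC content of the transcript, low to high. The median ran down to -0.26, and genes lower at 16 h made up 19.8% of the bin with the highest GC content.

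Genes of the Nodal pathway moved in both directions. Nodal is a TGF-beta ligand that acts with the coreceptor TDGF1, and Lefty1 and Lefty2 encode secreted inhibitors that are themselves targets of the pathway. Of 9 measured members 4 rose and 2 fell, against 8.72% and 12.5% of all genes, with a list median of 0.38 (all genes -0.06). Lefty2 (chr1:180893108-180899103) had 166, 163 and 155 CPM at 16 h, against 33.4, 40.7 and 39.1 CPM at 8 h. The groups were far apart, and Lefty2 rose by 2.07 ± 0.11 (SE) on the log2 scale (adjusted p = 6.89e-14). Its paralog Lefty1, on the same chromosome, had 12.3, 10.4 and 11.3 CPM at 16 h, against 7.59, 5.80 and 4.05 CPM at 8 h, and rose by 0.89 ± 0.16 (adjusted p = 4.05e-04). Tdgf1 had 382, 393 and 358 CPM at 16 h, against 211, 218 and 179 CPM at 8 h, and rose by 0.90 ± 0.14 (adjusted p = 8.63e-05). The ligand and a receptor went the other way: Nodal, chosen after its values were seen, fell to 54.0 ± 5.02 CPM at 16 h, against 72.7 ± 4.0 CPM at 8 h (adjusted p = 0.00559; 0.0679 with the GC correction). The activin receptor gene Acvr2b fell to a mean of 6.66 CPM at 16 h, against 12.7 CPM at 8 h (adjusted p = 0.00316).

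**Figure D3:**
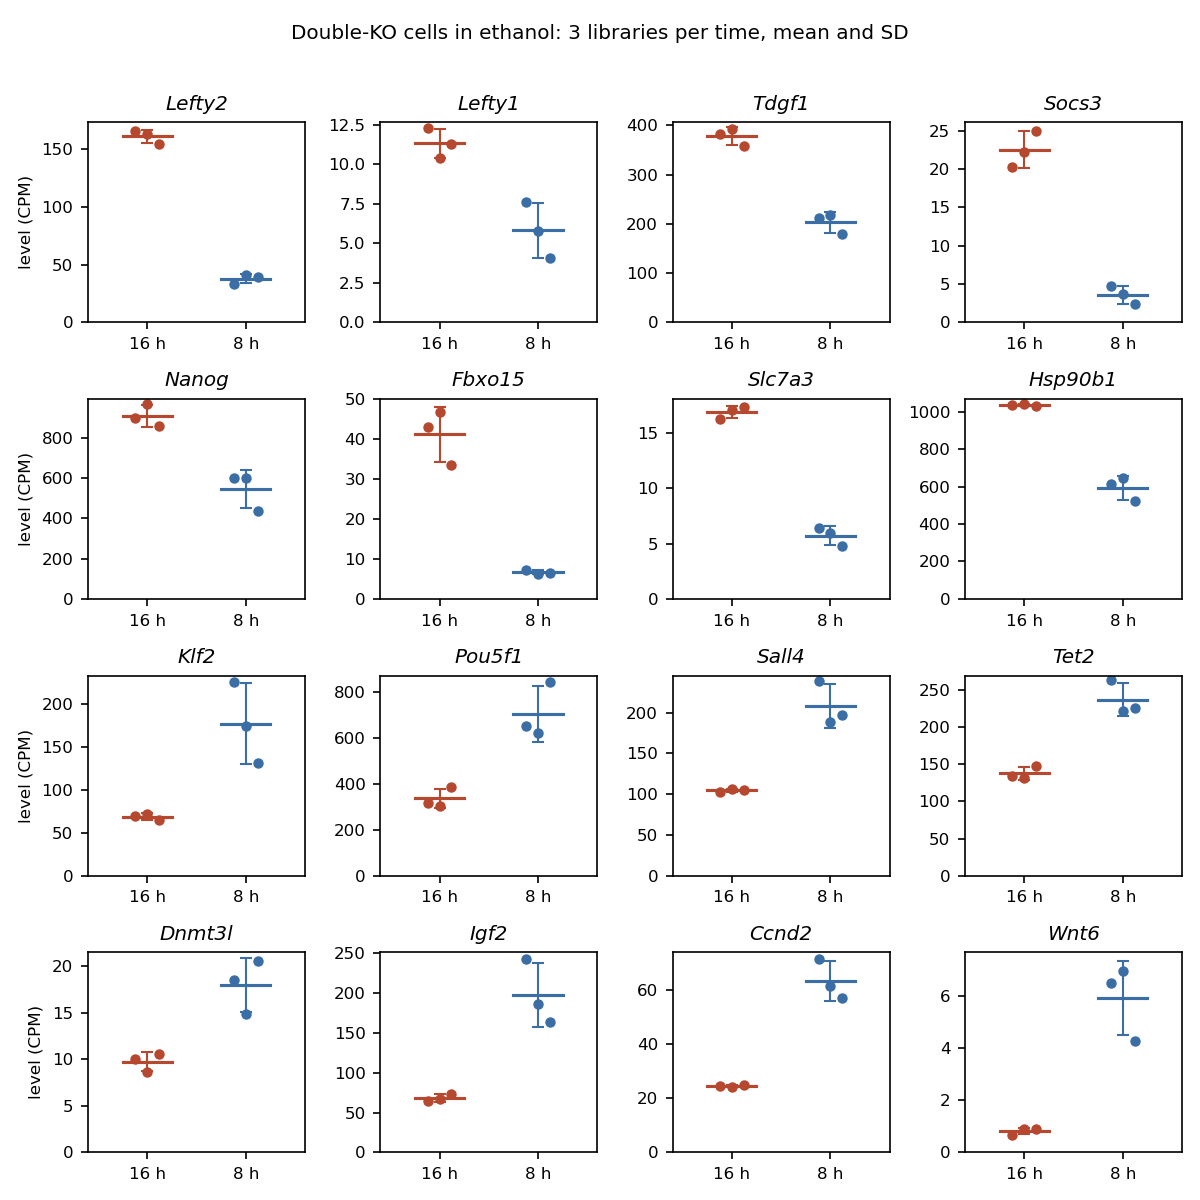
Level in CPM of 16 genes in the 3 libraries at 16 h (left) and the 3 at 8 h (right) of double-KO cells in ethanol, with the mean as a bar and the SD as whiskers. Lefty2 sits at 155 to 166 CPM at 16 h and 33.4 to 40.7 CPM at 8 h, and Klf2 at 64.5 to 71.6 CPM and 131 to 225 CPM at these times.

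Targets of LIF and STAT3 were higher at 16 h wherever they passed. Of 12 measured members 4 rose and 0 fell, with a median of 0.21. Socs3, the feedback inhibitor of JAK, had 20.2, 22.3 and 25 CPM at 16 h, against 4.70, 3.72 and 2.33 CPM at 8 h. It rose by 2.39 ± 0.41 (adjusted p = 3.17e-04), and it is itself a variable gene, with a within-group SD of 0.59 in the other libraries. Bcl3, an IkB family member, had 6.82, 10.6 and 11.3 CPM at 16 h, against 4.55, 3.45 and 3.70 CPM at 8 h, and rose by 1.09 ± 0.24 (adjusted p = 0.00231). Junb, an AP-1 subunit, averaged 18.3 ± 2.04 CPM at 16 h and 9.21 ± 1.87 CPM at 8 h (adjusted p = 0.00928). Stat3 averaged 62.6 ± 5.40 CPM at 16 h and 41.9 ± 8.36 CPM at 8 h (adjusted p = 0.0131). Neither Junb (adjusted p = 0.168) nor Stat3 (0.0689) passed in the covariate fit, nor without 8 h replicate 3 (0.0644 and 0.076). Stat3 also did not pass without 16 h replicate 1 (0.0586) or 8 h replicate 2 (0.0532). The receptor genes Lifr and Il6st did not pass, at 19 ± 1.40 CPM and 6.98 ± 0.71 CPM at 16 h, against 23.9 ± 2.41 CPM and 9.69 ± 1.5 CPM at 8 h.

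The STAT element TTCNNNGAA, which reads the same on both strands, was sought in the RefSeq promoter windows (250 bases before to 50 after the start site, GRCm38.p6) that matched 9448 of the tested genes. It was found in 8.07% of these genes and in 1 of the 12 list members, Socs3. The Socs3 window (chr11:117969317-117969616, minus strand) is shown because Socs3 was the list's largest increase. The element, in capitals, starts 154 bases before the start site (position -154).
Socs3: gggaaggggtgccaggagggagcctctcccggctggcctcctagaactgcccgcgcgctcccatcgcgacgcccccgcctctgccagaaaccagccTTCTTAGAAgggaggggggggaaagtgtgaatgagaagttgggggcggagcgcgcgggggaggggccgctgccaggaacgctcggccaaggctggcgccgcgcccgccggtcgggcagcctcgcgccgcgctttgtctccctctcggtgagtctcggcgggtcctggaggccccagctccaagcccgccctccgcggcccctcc

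Naive pluripotency genes did not move as a group: of 22 measured members 5 rose, 5 fell and 12 did not pass, with a median of -0.01. The largest increase among them was Fbxo15, an F-box gene and long-used marker of undifferentiated stem cells. It had 43.1, 46.9 and 33.6 CPM at 16 h, against 7.29, 6.21 and 6.58 CPM at 8 h, and rose by 2.44 ± 0.20 (adjusted p = 3.40e-09). Klf2, a Krüppel-like factor of the naive network, had 70.1, 71.6 and 64.5 CPM at 16 h, against 225, 175 and 131 CPM at 8 h, and fell by 1.32 on the log2 scale (SE 0.15; adjusted p = 1.28e-06). Sall4, a zinc finger factor, had 103, 107 and 105 CPM at 16 h, against 239, 189 and 197 CPM at 8 h, and fell by 0.98 (SE 0.12; adjusted p = 2.58e-06). The nuclear receptor gene Nr5a2 fell to 27.5 ± 2.18 CPM at 16 h, against 52.9 ± 7.87 CPM at 8 h (adjusted p = 1.18e-04).

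The remaining naive genes that passed are given because of their role, chosen after their values were seen. Nanog averaged 908 ± 54.8 CPM at 16 h and 544 ± 93.5 CPM at 8 h (log2 fold change 0.75 ± 0.25; adjusted p = 0.0379), but its call ended in the covariate fit (adjusted p = 0.518) and in 5 of the 6 fits that left out a library (0.0519 to 0.172, highest without 8 h replicate 3 and passing only without 8 h replicate 2). Pou5f1, which encodes OCT4 and has near-identical processed copies in the genome that could share its reads, averaged 337 ± 43.4 CPM at 16 h and 706 ± 122 CPM at 8 h (-1.06 ± 0.30; adjusted p = 0.0151). It did not pass in the covariate fit either (adjusted p = 0.174), nor without 16 h replicate 1 or 2 (0.0504 and 0.0565) or 8 h replicate 3 (0.0771). Klf5 rose to 104 ± 2.37 CPM at 16 h, against 70.3 ± 9.55 CPM at 8 h, and Tbx3 fell to 130 ± 3.53 CPM, against 185 ± 11.4 CPM. Tdh, the threonine dehydrogenase of mouse stem cells, had 170 ± 7.01 CPM at 16 h and 120 ± 8.00 CPM at 8 h, and Dppa3 had 2.96 ± 0.39 CPM and 1.23 ± 0.98 CPM, and neither passed in the covariate fit (adjusted p = 0.156 and 0.0753). Klf4, Tfcp2l1, Esrrb, Sox2 and Zfp42 did not pass, with Sox2 at 109, 96.0 and 103 CPM at 16 h and 113, 93.5 and 100.1 CPM at 8 h.

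Genes of the formative and primed states, through which naive cells exit, fell more often than they rose. Of 17 measured members 8 fell, 1 rose and 8 did not pass, with a median of -0.47. Over all genes 12.5% fell and 8.72% rose. Utf1, a chromatin protein of pluripotent cells, had 6.08, 7.71 and 7.59 CPM at 16 h, against 17.7, 16.4 and 21.4 CPM at 8 h, and fell by 1.26 (SE 0.13; adjusted p = 7.79e-08). Lin28a, which blocks maturation of let-7 microRNAs, had 30.4, 34.1 and 33.7 CPM at 16 h, against 64.0, 60.3 and 77.4 CPM at 8 h, and fell by 1.01 (SE 0.17; adjusted p = 1.36e-04). The other decreases included Pou3f1, Dnmt3a, Dnmt3b, Dnmt3l and Lin28b, of which Lin28b did not pass under median-of-ratios scaling (adjusted p = 0.0541) or in 5 of the 6 fits that left out a library (0.0597 to 0.163, highest without 16 h replicate 1 and passing only without 16 h replicate 3). The increase was Otx2, a homeobox gene of the exit from the naive state, at means of 13.1 CPM at 16 h and 8.63 CPM at 8 h (adjusted p = 0.0139; 0.0777 in the covariate fit, 0.0641 without 8 h replicate 2 and 0.0543 without 16 h replicate 2).

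Genes of DNA methylation and its removal, which include cofactors as well as enzymes, fell where they passed. Dnmt3a, Dnmt3b and Dnmt3l were counted in the formative list too. Here 5 of 11 fell and 0 rose, against 12.5% and 8.72% of all genes, with a median of -0.46. Tet2, a dioxygenase that oxidises methylcytosine, had 134, 132 and 147 CPM at 16 h, against 263, 222 and 226 CPM at 8 h, and fell by 0.78 (SE 0.12; adjusted p = 4.79e-05). Dnmt3l, the cofactor of the de novo methyltransferases, had 9.98, 8.60 and 10.6 CPM at 16 h, against 18.6, 14.8 and 20.6 CPM at 8 h (log2 fold change -0.82 ± 0.14; adjusted p = 3.23e-04). The methyltransferase gene Dnmt3a fell to 47.0 ± 3.09 CPM at 16 h, against 65.5 ± 2.96 CPM at 8 h, and Dnmt3b to 13.5 ± 1.27 CPM, against 21.6 ± 3.40 CPM. Trim28, a corepressor that guards methylation at imprints, fell to 306 ± 9.01 CPM at 16 h, against 449 ± 60.3 CPM at 8 h (adjusted p = 6.37e-04). Dnmt1, Uhrf1, Tet1 and Tet3 did not pass, although Uhrf1 passed as lower and Tet1 as higher in the covariate fit (adjusted p = 7.90e-04 and 0.006).

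Imprinted genes, which are expressed from a single parental allele, were lower more often than higher. Of 28 measured members 10 fell and 2 rose, against 12.5% and 8.72% of all genes, with a median of -0.27. Igf2, a fetal growth factor, had 64.7, 66.9 and 73.8 CPM at 16 h, against 242, 186 and 164 CPM at 8 h, and fell by 1.5 (SE 0.27; adjusted p = 4.65e-04). Cdkn1c, an inhibitor of cyclin-dependent kinases, fell to 16.2 ± 2.45 CPM at 16 h, against 38 ± 4.92 CPM at 8 h (adjusted p = 2.15e-05). The zinc finger genes Peg3 and Plagl1 fell to 19 ± 2.80 CPM and 36.8 ± 0.85 CPM at 16 h, against 40.0 ± 5.40 CPM and 72.1 ± 9.28 CPM at 8 h. Ascl2, a trophoblast factor chosen after its values were seen, fell to 4.89 ± 1.48 CPM at 16 h, against 13.8 ± 3.29 CPM at 8 h. The 2 increases were the amino acid transporter gene Slc38a4, at 432 ± 2.02 CPM at 16 h and 258 ± 34.3 CPM at 8 h (adjusted p = 1.17e-04), and Impact, at 228 ± 12.8 CPM and 130 ± 18.1 CPM. Maternally and paternally expressed genes both fell, and tags do not tell the alleles apart.

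**Figure D4:**
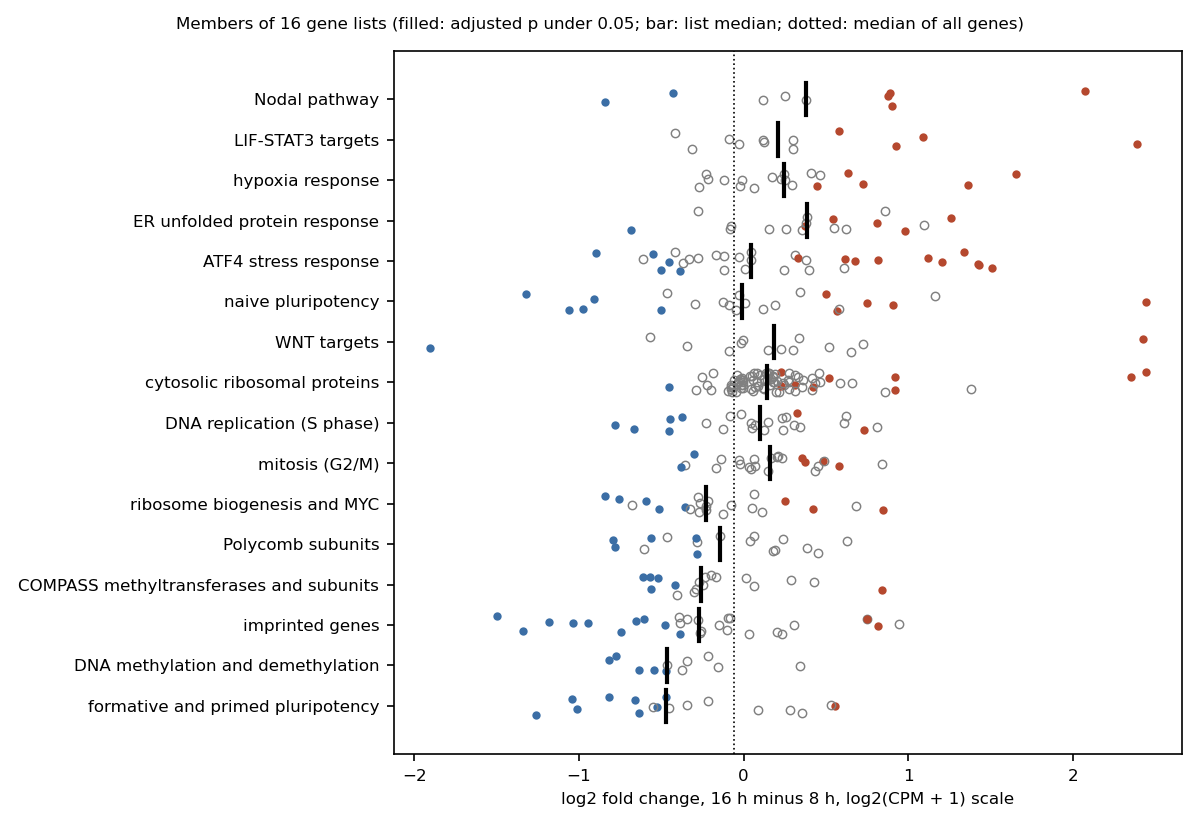
Log2 fold change of 16 h over 8 h on the log2(CPM + 1) scale for each measured member of 16 gene lists. Filled points passed, bars mark list medians and the dotted line marks the median of all genes (-0.06). In the Nodal list Lefty2 lies at 2.07, and the formative and DNA methylation lists have medians of -0.47 and -0.46.

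Members of the ATF4 stress response moved in both directions. This response is induced when amino acids run short or the endoplasmic reticulum is stressed. Of 32 measured members, among them genes of amino acid supply and tRNA synthetase genes, 10 rose, 5 fell and 17 did not pass, with a median of 0.05. Psph, the last enzyme of serine synthesis, had 41.5, 42.8 and 39.9 CPM at 16 h, against 15.0, 19.8 and 8.96 CPM at 8 h, and rose by 1.51 ± 0.24 (adjusted p = 1.36e-04). Slc7a3, a transporter of cationic amino acids, had 16.2, 17.1 and 17.3 CPM at 16 h, against 6.41, 5.94 and 4.76 CPM at 8 h, and rose by 1.42 ± 0.26 (adjusted p = 5.62e-04). Slc7a11, the cystine importer, rose from a low level and had 3.29, 4.36 and 2.59 CPM at 16 h, against 0.734, 0.952 and 0.506 CPM at 8 h (adjusted p = 0.00336). It did not pass with a pseudocount of 0.1 CPM (adjusted p = 0.0766). The transsulfuration gene Cth, at 17.5 ± 1.45 CPM at 16 h and 7.05 ± 1.04 CPM at 8 h, and Cebpb, at 9.20 ± 0.57 CPM and 2.82 ± 0.67 CPM, rose as well. Slc7a11, Cth, Cebpb and Tars were chosen after their values were seen. The stress factor gene Nupr1 rose to 20.1 ± 3.12 CPM at 16 h, against 11.1 ± 2.75 CPM at 8 h.

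The central members of the response did not pass. Atf4 had 209, 206 and 226 CPM at 16 h and 177, 203 and 263 CPM at 8 h, and Ddit3, Trib3, Chac1 and Asns did not pass either. In the covariate fit Atf4 and Trib3 passed as higher (adjusted p = 0.0183 and 0.0371) and Asns as lower (0.0122). Gars, the glycyl-tRNA synthetase, fell to 179 ± 8.04 CPM at 16 h, against 264 ± 42.2 CPM at 8 h (adjusted p = 8.20e-04). Other synthetase genes of the list also fell, and Tars alone among them rose, to 262 ± 6.15 CPM, against 172 ± 21.2 CPM. Only Gars is named here of the 5 decreases, while most of the increases are named. The C/EBP-ATF response element TGATGNAA was sought on both strands of the same promoter windows, which matched 26 of the 32 members. It was found in 2.53% of all matched genes and in 10 of the 26 members. Of these 10, Slc7a11, Nupr1 and Tars rose, Gars fell and the other 6 did not pass. The Slc7a11 window (chr3:50443564-50443863, minus strand) is shown because it held 2 matches and Slc7a11 rose; Aars, which did not pass, also held 2. The matches, in capitals, start at positions -66 on the gene's strand and -47 on the other strand.
Slc7a11: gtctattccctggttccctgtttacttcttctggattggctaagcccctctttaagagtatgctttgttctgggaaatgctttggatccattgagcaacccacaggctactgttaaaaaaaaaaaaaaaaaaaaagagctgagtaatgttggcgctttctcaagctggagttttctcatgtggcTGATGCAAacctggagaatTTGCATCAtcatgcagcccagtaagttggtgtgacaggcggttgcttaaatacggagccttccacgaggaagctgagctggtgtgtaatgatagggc

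Some chaperones of the endoplasmic reticulum and some hypoxia genes rose, while most members of both lists did not pass. Of 18 members of the unfolded protein response 5 rose and 1 fell, with a median of 0.38 that was 0.06 in the covariate fit. Hsp90b1, which encodes GRP94, had 1035, 1043 and 1029 CPM at 16 h, against 612, 647 and 521 CPM at 8 h, and rose by 0.81 ± 0.10 (adjusted p = 2.73e-06). Hspa5, which encodes BiP, rose to 979 ± 16.9 CPM at 16 h, against 756 ± 44.5 CPM at 8 h (adjusted p = 0.00387), a call that ended with the GC correction (0.184). The oxidoreductase gene Pdia3 fell to 246 ± 39.8 CPM at 16 h, against 394 ± 33.5 CPM at 8 h. Of 19 hypoxia genes 5 rose and 0 fell, with a median of 0.24 that was 0.03 in the covariate fit. Egln3, a prolyl hydroxylase that senses oxygen, had 4.96, 6.89 and 4.80 CPM at 16 h, against 1.76, 1.22 and 1.62 CPM at 8 h, and rose by 1.36 ± 0.26 (adjusted p = 7.01e-04). The mitophagy receptor gene Bnip3 rose to 20.6 ± 2.05 CPM at 16 h, against 12.2 ± 3.00 CPM at 8 h. P4ha1 and Pdk1 passed narrowly (adjusted p = 0.049 and 0.0495), and neither passed in the covariate fit (0.395 and 0.495) or without 8 h replicate 3 (0.229 and 0.0944). Among the fits that left out a library, P4ha1 passed only without 8 h replicate 2, and Pdk1 passed in none (0.0599 to 0.16).

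Other signalling lists held single large changes. Of 14 WNT targets 1 rose and 1 fell, and 12 did not pass. Notum, an extracellular inhibitor of WNT, had 8.25, 8.42 and 7.40 CPM at 16 h, against 1.37, 0.589 and 0.253 CPM at 8 h, and rose by 2.43 ± 0.32 (adjusted p = 1.00e-05). The ligand gene Wnt6 had 0.682, 0.883 and 0.908 CPM at 16 h, against 6.51, 6.98 and 4.30 CPM at 8 h, and fell by 1.91 (SE 0.27; adjusted p = 2.47e-05). Axin2, the most general WNT target, did not pass, with 14.2, 14.1 and 10.3 CPM at 16 h and 13.1, 7.26 and 6.53 CPM at 8 h, but passed as higher with the GC correction (adjusted p = 0.0184). Of 15 FGF feedback genes 2 rose and 2 fell. The ETS factor genes Etv5 and Etv1 fell to 50.1 ± 5.33 CPM and 13.3 ± 0.46 CPM at 16 h, against 77.8 ± 4.48 CPM and 26.0 ± 3.22 CPM at 8 h. Of 13 YAP targets 2 rose and 2 fell: Cyr61, a matricellular protein gene, rose to 21.9 ± 4.75 CPM at 16 h, against 5.35 ± 1.26 CPM at 8 h, and the scaffold gene Ajuba fell to 30.2 ± 2.05 CPM, against 51.5 ± 1.54 CPM. Of 16 immediate-early genes 4 rose and 0 fell, and none of the 4 passed in the covariate fit. Of 26 p53 targets 5 rose and 3 fell, against 8.72% and 12.5% of all genes. In the covariate fit 2 of these 8 passed the same way. Of 14 clock genes 3 rose and 1 fell, of which 2 passed the same way in that fit.

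Cell cycle genes moved in both directions. Of 16 G1 regulators 3 fell, 1 rose and 12 did not pass, with a median of 0.18 that was -0.13 in the covariate fit. Ccnd2, encoding cyclin D2, had 24.7, 24.3 and 25 CPM at 16 h, against 71.8, 61.5 and 57.2 CPM at 8 h, and fell by 1.32 (SE 0.19; adjusted p = 4.11e-05). Ccnd3, encoding cyclin D3, rose to 155 ± 9.97 CPM at 16 h, against 106 ± 15.2 CPM at 8 h (adjusted p = 0.00192). Of 24 replication genes 5 fell and 2 rose, against 12.5% and 8.72% of all genes, with a median of 0.10. In the covariate fit their median was -0.13, with 0 higher and 8 lower. The helicase subunit gene Mcm5 fell to a mean of 215 CPM at 16 h, against 342 CPM at 8 h, Mcm3 to 219 ± 14.1 CPM, against 299 ± 13.3 CPM, and the histone chaperone gene Chaf1a to 29.7 ± 1.89 CPM, against 51.7 ± 1.79 CPM. Of 24 mitosis genes 4 rose and 2 fell, with a median of 0.16. In the covariate fit their median was -0.20, with 3 higher and 4 lower. The kinesin gene Kif11 rose to 96.3 ± 6.25 CPM at 16 h, against 64.1 ± 3.53 CPM at 8 h, and the spindle factor gene Tpx2 fell to 235 ± 2.50 CPM, against 291 ± 23.3 CPM, with an adjusted p of 0.0871 under median-of-ratios scaling, 0.0928 in the covariate fit and 0.0667 without 8 h replicate 3. Of 43 replication-dependent histone genes, whose near-identical copies can share reads and whose messages mostly lack a poly(A) tail, 4 fell and 0 rose, 1 of the 4 passed in the covariate fit, and 9 of the 43 were variable genes.

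Most genes of ribosome making and most ribosomal protein genes did not pass. Of 22 biogenesis genes 5 fell and 3 rose, with a median of -0.23. Polr1a, the catalytic subunit of RNA polymerase I, fell to 47.4 ± 4.19 CPM at 16 h, against 80.7 ± 6.72 CPM at 8 h (adjusted p = 7.64e-05), and the processing factor gene Bop1 to 23.7 ± 2.39 CPM, against 43.5 ± 6.94 CPM. Of 84 cytosolic ribosomal protein genes 9 rose and 1 fell, a share of increases near the 8.72% of all genes, with a median of 0.14. Rpl24 had 1349, 1312 and 1299 CPM at 16 h, against 953, 1085 and 931 CPM at 8 h, and rose by 0.42 ± 0.07 (adjusted p = 1.91e-04). Rps24 rose to 2335 ± 61.7 CPM at 16 h, against 1251 ± 272 CPM at 8 h. Many of these genes have processed copies, so their levels are uncertain. Of 87 nuclear genes for oxidative phosphorylation 8 rose and 6 fell, with a median of 0.10, and 8 were variable genes. Their share of increases was near the 8.72% of all genes, and that of decreases was below the 12.5% of all genes.

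Lipid and sugar genes moved in both directions, and most did not pass. Of 13 fatty acid synthesis genes 3 fell and 0 rose, with a median of -0.21. Acaca, the acetyl-CoA carboxylase that commits carbon to fatty acids, had 13.9, 15.1 and 13.6 CPM at 16 h, against 28.2, 32.1 and 34.9 CPM at 8 h, and fell by 1.10 (SE 0.16; adjusted p = 4.43e-05). Fasn, the synthase, fell to 56.6 ± 2.07 CPM at 16 h, against 98.5 ± 15.2 CPM at 8 h (adjusted p = 0.00578; 0.0797 in the covariate fit). Of 25 cholesterol genes 5 fell and 3 rose. The reductase gene Dhcr7 fell to 9.65 ± 0.67 CPM at 16 h, against 17.7 ± 2.44 CPM at 8 h. Idi1, the isopentenyl isomerase and a variable gene, rose to 79.2 ± 4.81 CPM, against 12.9 ± 3.79 CPM. Of 21 glycolysis genes 3 fell (Gpi1, Pgam1 and Pfkl) and 2 rose (among them Hk2), near the 12.5% and 8.72% of all genes, and none of these 5 passed in the covariate fit. Of 24 lysosome genes 4 fell and 1 rose, and 1 of these 5 passed in the covariate fit. Lamp1, a lysosomal membrane protein, fell to 318 ± 20.9 CPM at 16 h, against 461 ± 32.9 CPM at 8 h (adjusted p = 3.05e-04). Nqo1, a quinone reductase induced by NRF2, had 132, 130 and 129 CPM at 16 h, against 77.0, 67.6 and 56.0 CPM at 8 h, and rose (adjusted p = 2.25e-04), while Txnrd1 of the same list fell to 254 ± 6.98 CPM, against 339 ± 29.8 CPM.

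Chromatin regulators were lower where they passed, apart from 1 gene. Over all genes 12.5% fell and 8.72% rose. Of 18 COMPASS genes, the family of KMT2C and KMT2D, 5 fell and 1 rose, with a median of -0.26. Kmt2c itself, the knocked-out gene whose tags are described above, was among the decreases. Setd1a fell to 23.2 ± 1.13 CPM at 16 h, against 34.8 ± 1.03 CPM at 8 h, and Kmt2a to 48.2 ± 3.06 CPM, against 72.1 ± 8.50 CPM, and neither passed in the covariate fit (adjusted p = 0.0659 and 0.17). Setd1a did not pass with the GC correction (0.0592), nor Kmt2a without 8 h replicate 3 (0.0556), 8 h replicate 1 (0.0569) or 16 h replicate 2 (0.0555). The increase was Dpy30, a core subunit chosen after its values were seen, at 242 ± 4.73 CPM at 16 h and 140 ± 45.2 CPM at 8 h, a call that ended in the covariate fit (adjusted p = 0.14) and without 8 h replicate 3 (0.124). Of 17 Polycomb genes 5 fell and 0 rose, with a median of -0.14. In the covariate fit 2 of these 5 still passed. Jarid2 and Cbx2 did not pass there (adjusted p = 0.129 and 0.0841), nor with the GC correction (0.0637 and 0.111). Phc1, a subunit of PRC1, had 40.6, 43.6 and 42.0 CPM at 16 h, against 80.7, 69.4 and 71.0 CPM at 8 h, and fell by 0.79 (SE 0.10; adjusted p = 7.30e-06). Kdm2b, which recruits PRC1 to CpG islands, fell to 33.5 ± 0.20 CPM at 16 h, against 58.4 ± 6.16 CPM at 8 h (adjusted p = 0.0011).

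Epithelial genes that GRHL2 is known to drive were examined because the transgene was present without tamoxifen. Of 35 measured members 6 rose and 2 fell, against 8.72% and 12.5% of all genes, with a median of 0.03. Grhl3, a Grainyhead family member, had 34.5, 40.2 and 30.8 CPM at 16 h, against 11.5, 9.43 and 7.74 CPM at 8 h, and rose by 1.78 ± 0.39 (adjusted p = 0.00253). The protease inhibitor genes Spint1 and Spint2 rose to 22.6 ± 1.42 CPM and 11.1 ± 1.24 CPM at 16 h, against 13.8 ± 0.97 CPM and 1.79 ± 0.85 CPM at 8 h, and Grhl3 and Spint2 are variable genes. Cdh1, encoding E-cadherin and chosen after its values were seen, rose to 144 ± 10.0 CPM at 16 h, against 101 ± 8.37 CPM at 8 h. Cldn4, a tight junction claudin, fell to 41.3 ± 1.48 CPM at 16 h, against 68.4 ± 7.74 CPM at 8 h. Of 14 mesenchymal genes 3 fell (the EMT factor gene Zeb1, Sparc and Tgfb2) and 1 rose (Col5a2). Without 8 h replicate 3, Sparc and Col5a2 did not pass (adjusted p = 0.0597 and 0.099), and Sparc did not pass in the covariate fit (0.122) or with the GC correction (0.07). With a pseudocount of 0.1 CPM, Col5a2 and Tgfb2 did not pass (adjusted p = 0.229 and 0.0578). Of 14 trophoblast markers 2 rose and 1 fell, with a median of 0.00. The clustered homeobox genes Rhox6 and Rhox9 rose to 106 ± 9.28 CPM and 39.6 ± 4.76 CPM at 16 h, against 55.6 ± 3.01 CPM and 16.7 ± 4.66 CPM at 8 h. Esx1 was the decrease, which did not pass in the covariate fit (adjusted p = 0.269) nor without any 1 of the 6 libraries (0.0555 to 0.194). Of 12 primitive endoderm markers 2 fell (Lamb1 and Col4a2) and 0 rose. Col4a2 did not pass in the covariate fit (adjusted p = 0.103), with the GC correction (0.115) or with a pseudocount of 0.1 CPM (0.0625). It did not pass without 16 h replicate 1 (0.0589) or 8 h replicate 1 (0.0569) either. Of 8 neuroectoderm markers 3 fell (Ncam1, Tubb3 and Map2) and 0 rose. Tubb3 did not pass without 16 h replicate 3 (adjusted p = 0.0656) or 8 h replicate 1 (0.0506). Map2 did not pass without 16 h replicate 1 or 2 (0.126 and 0.129) or 8 h replicate 1 or 2 (0.0628 and 0.108).

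The other lists held few changes, with 8.72% of all genes higher and 12.5% lower for comparison. Of 17 heat shock genes 3 fell (Hsp90ab1, Dnajb1 and Hspb1) and 1 rose (Dnaja1), with a median of -0.01. Of these 4 only Hsp90ab1 passed in the covariate fit, where Dnajb1, Hspb1 and Dnaja1 had adjusted p = 0.624, 0.191 and 0.772. Without 8 h replicate 3 these 3 did not pass either (0.145, 0.108 and 0.248), nor without 16 h replicate 1 or 2 (0.056 to 0.119). Dnajb1 passed only without 8 h replicate 2, and Dnaja1 also did not pass without 16 h replicate 3 (0.0802). With the GC correction Dnajb1, Hspb1 and Dnaja1 had adjusted p = 0.108, 0.212 and 0.0716. Of 15 genes induced by FoxO factors or nutrient withdrawal 3 rose and 2 fell, with a median of 0.32. Of 16 genes of the oxidative stress response 2 rose and 4 fell. Arrdc4, an arrestin-like gene controlled by the glucose sensor MondoA, rose, as 1 of 2 measured. Mt2, a metallothionein, was the increase among 3 genes of its list, and Ifitm3, an interferon-induced membrane protein, among 8 of its list. Mt2 did not pass in the covariate fit (adjusted p = 0.192), nor without 8 h replicate 3 (0.116) or 16 h replicate 1 or 2 (0.0536 and 0.0637). Ifitm3 did not pass in 5 of the 6 fits that left out a library (0.0504 to 0.161, highest without 8 h replicate 2 and passing only without 8 h replicate 3). None of 5 genes of the two-cell-like state, 4 mesoderm markers or 3 fibroblast markers passed.

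The 14 largest increases were mostly variable genes. Snhg6, a host gene of small nucleolar RNAs, led with 215, 222 and 207 CPM at 16 h, against 17.6, 19.2 and 2.23 CPM at 8 h (log2 fold change 4.34 ± 1.10; adjusted p = 0.00849). It passed neither in the covariate fit (adjusted p = 0.0625) nor without 8 h replicate 3 (0.06). Sdhd, Crtc2, Rpa3, Manba, Ost4, Adam9, Ppp4c, Snrpf, Med30, Mrps28 and Pfn1 were the other variable genes, with increases of 2.86 to 3.81, of which Rpa3, Manba and Mrps28 did not pass in the covariate fit. Without 8 h replicate 3, Ost4, Pfn1 and Mrps28 did not pass either (adjusted p = 0.057, 0.0502 and 0.194). Mrps28 also did not pass without any 1 of the 16 h libraries (0.0721 to 0.0835). The remaining 2 were steady in the other libraries. Magohb, an exon junction factor, had 22 to 24.8 CPM at 16 h, against 0.405 to 2.20 CPM at 8 h, and rose by 3.42 ± 0.31 (adjusted p = 1.30e-08). Fam25c had 32.3, 33.1 and 30.9 CPM at 16 h, against 2.89, 3.72 and 3.75 CPM at 8 h, and rose by 2.90 ± 0.20 (adjusted p = 4.40e-11).

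The largest decreases apart from Rps27rt were smaller and rarely variable. After Wnt6 came Igfbpl1, an IGF-binding protein relative, which fell by 1.88 on the log2 scale (SE 0.22; adjusted p = 1.58e-06). The pseudokinase gene Trib2 fell to 2.80 ± 0.38 CPM at 16 h, against 12.1 ± 0.74 CPM at 8 h (-1.79 ± 0.23), and the neurofilament gene Nefh to 5.41 ± 1.47 CPM, against 18.3 ± 1.69 CPM (-1.61 ± 0.18). Tenm4, Igf2, Pcbp3, Tppp3, Plxna2 and Gnaz followed with decreases of 1.42 to 1.63, and all 6 still passed in the covariate fit. Zfp91Cntf, a read-through of 2 genes, and Pigt and Hist1h2ap passed with decreases of 1.48 to 1.82 but not in that fit, and the first and last of these may share reads with their neighbours or copies. Without 16 h replicate 2, Zfp91Cntf had a log2 fold change of only -0.62 (adjusted p = 0.241), and it did not pass without any 1 of the 8 h libraries (0.0569 to 0.118). Hist1h2ap did not pass without 16 h replicate 1 or 2 or 8 h replicate 3 (0.0916 to 0.121). With the GC correction neither passed (0.0514 and 0.0599).

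The same contrast in the Kmt2c-KO line in ethanol asks whether the time difference depends on the line, and the 2 contrasts share no library. In that line 5587 genes passed (45% of those tested), and 731 of the 1083 increases here (67.5%, and 33.6% of the 2177 there) and 1186 of the 1556 decreases (76.2%, and 34.8% of the 3410 there) passed the same way. In double-KO cells in tamoxifen 4435 genes passed (35.7%), with 817 shared increases (75.4% of those here, 34.9% of those there) and 1058 shared decreases (68%, 50.6%). In all 5 pairs of groups, which share no library but may share a preparation, 440 genes rose and 701 fell. The difference between ethanol and tamoxifen within the double-KO line passed for 0 genes with limma, with 714 at an unadjusted p under 0.05. Limma was the only tool run for it. The 3 double-KO tamoxifen libraries of 8 h stood apart, with mean correlations of 0.938 to 0.965 within their group, against 0.979 to 0.985 in ethanol at 8 h.

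The time difference itself differed between double-KO and Kmt2c-KO cells for 601 genes (4.84%), with 444 above and 157 below zero. By median-of-ratios scaling the split was 340 above and 235 below, and with the GC correction 319 above and 212 below. The Nodal pathway held large differences. Lefty2 averaged 161 ± 5.85 CPM at 16 h and 37.7 ± 3.82 CPM at 8 h in double-KO cells, but fell in Kmt2c-KO cells (log2 fold change -0.56), a difference of 2.63 between the contrasts (adjusted p = 2.23e-12). Lefty1 likewise rose in double-KO cells and fell in Kmt2c-KO cells, by 1.32 in the second line (difference 2.21; adjusted p = 5.86e-07). Tet2 fell in double-KO cells and rose in Kmt2c-KO cells by 0.42 (difference -1.20; adjusted p = 2.64e-05), as did Etv1 (-2.10; adjusted p = 9.11e-06). Dnmt3l and Utf1 fell in double-KO cells and did not pass in Kmt2c-KO cells, with differences of -0.99 and -1.05 that passed. Grhl2 tags fell by 1.18 in Kmt2c-KO cells, and their difference of 1.54 passed (adjusted p = 0.00839).

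**Figure D5:**
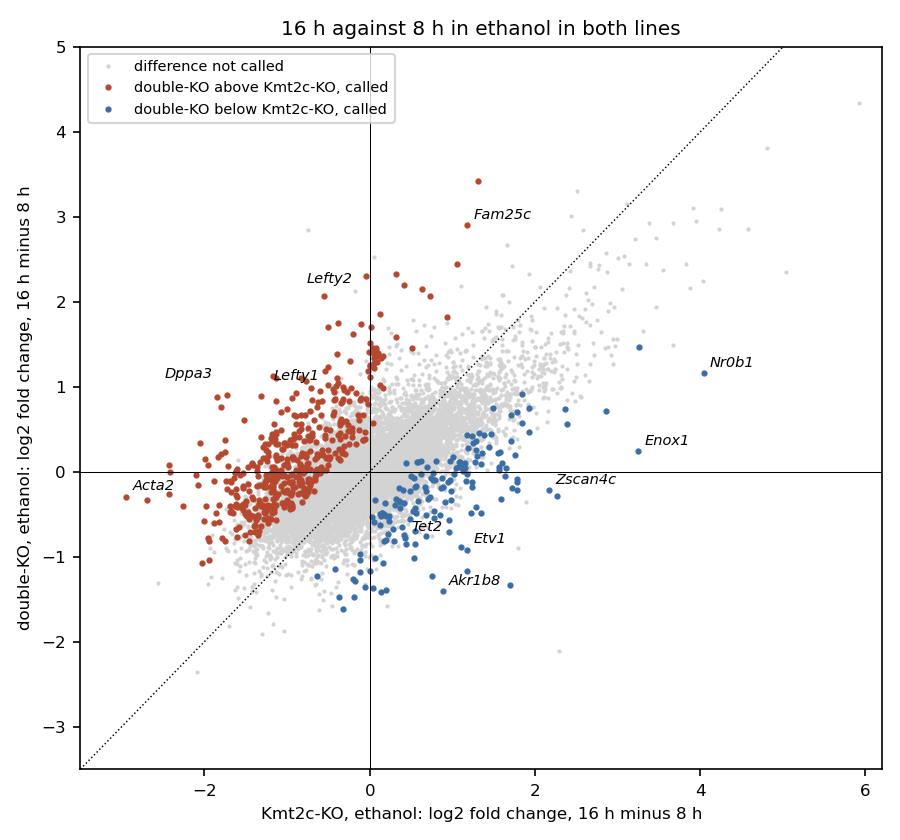
Log2 fold change of 16 h over 8 h in double-KO cells (vertical) against Kmt2c-KO cells (horizontal), both in ethanol, for all tested genes within the axes; the dotted line marks equal change. Coloured genes passed the test of the difference, 444 above and 157 below, and Lefty2 lies at 2.07 in double-KO and -0.56 in Kmt2c-KO cells.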

How the data were processed

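The deposited table gives log2 expression values of 12428 genes in 30 libraries, made by the authors. Per the submitters' processing notes the build was mm10, and Salmon and DESeq2 1.34.0 were used, in roles not given in the sources used here. Per the labels' protocols the libraries were QuantSeq 3′ tag libraries from 200 ng of total RNA, read as single-end 50 bp. The values fit log2(CPM + 0.124871), which was undone to give CPM, and low values were then whole reads within 0.05 reads in 95.9% to 97.6% of cases. Recovered depth was 8.83 to 22.1 M reads per library over the series, and 3 reads, taken as the floor, equal 0.136 to 0.340 CPM. Floors cover counting error only.

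The test was limma 3.58.1 in R 4.3.3 on log2(CPM + 1), with a mean for each of the 10 groups over all 30 libraries, a trended robust prior, 20 residual degrees of freedom and two-sided Benjamini-Hochberg adjustment over 12414 genes. The filter, a group mean of at least 1 CPM, removed 14 genes. Fold changes are on the log2(CPM + 1) scale, which understates the change of low genes. The procedure was tested on simulated independent counts. These held no shared set of variable genes, GC trend or outlying group, so that test does not cover such features. The genes named are the 14 largest increases and 14 largest decreases with at least 5 CPM in the higher group and no overlap, up to 4 members of each list with the smallest adjusted p under the same conditions, the 6 largest differences between contrasts in each direction, and Grhl2, Kmt2c, Kmt2d and Esr1. Other genes are named for their role or beside a count, after their values were seen. The comparison and the 44 gene lists were chosen with earlier results of these data known, and mitochondrially encoded genes, 1 of the lists, had no measured member. The variable genes, the covariate fit and the GC correction were chosen after seeing the data. Coordinates are from GENCODE mouse release M21 on mm10, and promoter windows are from RefSeq. A few genes that the rule or a list holds are not reported here.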

Additional observations from a re-analysis of the deposited data

Results flagged for a closer look

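The genes below are listed because the 16 h minus 8 h difference in double-KO cells minus that in Kmt2c-KO cells, both in ethanol, passed limma's test of the difference itself. Each value is that difference on the log2 scale. The lines are separate clones, so line and genotype cannot be told apart.

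Signalling and pluripotency genes had values of 2.63 for Lefty2, 2.21 for Lefty1, 2.64 for Dppa3, 1.38 for Fbxo15 and 0.91 for Stat3, against -2.88 for Nr0b1, -2.38 for Zscan4c, -2.10 for Etv1, -1.20 for Tet2, -1.05 for Utf1 and -0.99 for Dnmt3l. Zscan4c belongs to a family of near-identical copies and its level is uncertain. The actin genes Acta2 and Acta1 had 2.65 and 2.41, Lrrc15 had 2.51, Magohb 2.11, Fam25c 1.72, and the scaffold genes Amotl1 and Ajuba 0.89 and 0.60. Enox1 had -3.01, Nt5e -2.55, Akr1b8 -2.29, Nefh -1.29 and Tppp3 -1.09.

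Among metabolic and stress genes the difference was 1.27 for Egln3, 1.10 for Pgd, 1.00 for Fasn, 1.00 for Gabarapl1, 0.93 for Gstm1, 0.83 for Hk2, 0.75 for Ebp and 0.46 for Hspa5. Among lineage, growth and chromatin genes it was 1.17 for Rhox9, 1.09 for Rhox6, 0.94 for Lamb1, 0.91 for Peg3, 0.81 for Ccnd3, 0.81 for Ifitm3, 0.80 for Kmt2a, 0.68 for Cldn4, 0.50 for Jarid2 and -0.92 for Rpl17.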

How the results depend on the processing

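None of the 155 genes that were named by rule and called, nor of the 18 called among 36 other genes in the text, reversed its direction under the alternatives run for single genes (pseudocounts, scaling, fewer libraries, the block over all libraries, the covariate and GC fits). The 2639 genes passing between 16 h and 8 h became 5221 with array weights and 514 with a fold change of at least 1 on the log2 scale. They ranged from 1488 to 2330 when a library was left out, lowest without 8 h replicate 3. Without the double-KO tamoxifen 8 h group they numbered 3947. The 601 genes whose time difference differed between double-KO and Kmt2c-KO cells became 971 with the 12 libraries of these groups alone, 2386 with array weights, 952 in the covariate fit, 1277 without the double-KO tamoxifen 8 h group and 338 with a fold change of at least 1, and ranged from 379 to 606 with a library left out. They numbered 379 without double-KO 8 h replicate 2 and 394 without double-KO 16 h replicate 3. The causes were not tested. The difference between ethanol and tamoxifen passed for 0 genes throughout.

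The replicate numbers did not pair the libraries, with correlations of 0.030, 0.043 and 0.152 between same-numbered libraries. With the replicate block over all libraries 2497 genes passed between the times and 554 between the lines. With the block in the libraries of a contrast alone, 3630 and 978 passed, against 3445 and 971 in the same libraries without the block. Of the 155 genes named by rule and called, 45 lost their call without at least 1 library, 43 lost their call in the covariate fit, 24 with the GC correction, 12 with median-of-ratios scaling, 10 with a pseudocount of 0.1 CPM and 3 with the block. Counts below 3 reads set the limit for low genes.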
